A study of Homo sapiens with 2 samples.

Results

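The genes described here encode the subunits of the respiratory chain and of ATP synthase, the machinery of oxidative phosphorylation, together with a few factors that help to assemble it. They were chosen by gene symbol: every row of the deposited table whose symbol began with MT-ND, MT-CO, MT-ATP, MT-CYB, NDUFA, NDUFB, NDUFC, NDUFS, NDUFV, UQCR, ATP5, or COX followed by a digit for the subunit families IV to VIII. Of 110 such rows, 2 were pseudogenes and 9 others held fewer than 50 unique molecular identifiers (UMIs, each standing for 1 captured RNA molecule) over both libraries. That left 99 members of the 32742 genes in the table, of which 13 are encoded in mitochondrial DNA and 86 in the nucleus. The nuclear members comprised 75 subunits, 10 assembly or supercomplex factors and 1 antisense transcript, NDUFB2-AS1. The choice used names and total UMIs, and no difference between the libraries.

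Oxidative phosphorylation passes electrons from NADH and succinate along protein complexes of the inner mitochondrial membrane to oxygen, and the proton gradient this builds drives ATP synthase. Complex I oxidises NADH, complex III passes electrons from ubiquinol to cytochrome c, complex IV (cytochrome c oxidase) reduces oxygen, and complex V is ATP synthase itself. Complexes I, III, IV and V each hold subunits from both genomes: mitochondrial DNA is transcribed as long polycistronic RNAs that are cut into the individual mRNAs, and nuclear subunits are made in the cytosol and imported.

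WaGa is an established human line from a Merkel cell carcinoma, a neuroendocrine cancer of the skin, and it grows in suspension. The study profiled single WaGa cells by droplet RNA sequencing of transcript 3′ ends, comparing 1 library of cells that received no treatment with 1 library of cells given domatinostat, an inhibitor of histone deacetylases that was dissolved in DMSO. Dose and time were not in the labels, nor was it stated whether the untreated cells received the solvent. A word for the treatment that closes each cell's name is all that ties a cell to a library, so the libraries are called the library labelled untreated and the library labelled treated.

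There were 4137 cells with 45562976 UMIs (median 11125 per cell) in the library labelled untreated, against 6679 cells with 60160108 UMIs (median 8578) in the other. All 10 Merkel cell markers listed reached 50 UMIs and summed to 1867 and 2249 counts per 1000000 UMIs (CPM), whereas of 4 T cell markers in the table none did and 3 were at 0. Most of the higher Merkel sum came from CHGA (886.3 and 1221 CPM), and SOX2, ISL1, INSM1, SYP, ATOH1 and POU4F3 were also higher. KRT20 (295.5 and 248 CPM), ENO2 (115.9 and 108.9 CPM) and NCAM1 (38.8 and 32.2 CPM) were lower. Keratinocyte markers summed to 403.4 and 358.8 CPM, most of it from KRT10 (310.6 and 313.2 CPM), which was found in 91.6% and 89.1% of cells. SFN measured 88.3 and 42.9 CPM and KRT5 4.32 and 2.78 CPM, while KRT14 held 5 and 1 UMIs and KRT1 3 and 0. The fibroblast, B cell, myeloid and endothelial lists summed to between 0.731 and 29.3 CPM. The part of these markers in the results was not tested. The libraries shared 48 cell barcodes. With 1 library a group, no difference described here has a replicate check and no test between conditions was possible. Side by side, the first of 2 values is always from the library labelled untreated and the second from the library labelled treated. Levels are UMIs of a gene over all cells of a library, in CPM, and ratios are the level in the library labelled treated over that in the library labelled untreated, with exact 95% intervals that cover counting error only. Because each UMI is 1 molecule tagged at its 3′ end, levels were not divided by transcript length.

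Summed over all cells, the nuclear members made up more of the RNA in the library labelled treated and the mitochondrial members less, although the mitochondrial sums were close to equal in cells called G1 or G2/M. Transcripts of the mitochondrial members took 5.09% and 4.74% of UMIs, a ratio of 0.932 (0.930 to 0.933), whereas the nuclear members took 3.87% and 4.10%, a ratio of 1.06 (1.06 to 1.06). By gene, 53 of 86 nuclear members had a ratio above 1 and 33 below, and 4 of 13 mitochondrial members were above 1 and 9 below. Of all genes with at least 50 UMIs, 6614 of 13958 were above 1, as were 1470 of 2766 at 50 CPM or more. The median log2 ratio was 0.06 over nuclear members and -0.03 over mitochondrial members, beside -0.02 over the 13958 genes with at least 50 UMIs and 0.02 over the 2766 genes at 50 CPM or more on average. The nuclear median stayed above 0 in all 12 other settings (other scalings, subsets of cells, thinned cells and a higher UMI minimum), but the mitochondrial median turned above 0 in cells called G1 (0.06), in cells called G2/M (0.09) and in cells with a mitochondrially encoded share under 6% (0.02). The last of these settings leaves out cells by the mitochondrial share itself, 19.2% and 10.3% of cells, so it shifts mitochondrial ratios by construction.

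Few members were far from 1. A gene was called higher or lower where its log2 ratio was at least 0.32 above or below 0. In the library labelled treated 8 of 86 nuclear members were called higher, beside 13.5% of all genes with at least 50 UMIs and 9.15% of genes at 50 CPM or more, so this count is close to the background at like levels. Called lower were 2 of 86, COX4I2 and NDUFA4L2, both with few UMIs, beside 24.6% and 8.32%. Of 13 mitochondrial members, 2 were called higher and 0 lower. With a fold of 1.1 as the bound, 29 nuclear members were higher and 11 lower, beside 30.6% and 38.0% of all genes, or 29.3% and 24.9% of genes at 50 CPM or more. With a fold of 1.5 they were 0 and 1, beside 3.77% and 14.9%, or 1.23% and 2.28%. The interval of the ratio lay above 1 for 47 nuclear members and below 1 for 24, and spanned 1 for 15, beside 28.5% above and 34.7% below over all genes, and 43.8% and 38.6% among genes at 50 CPM or more.

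**Figure D1:**
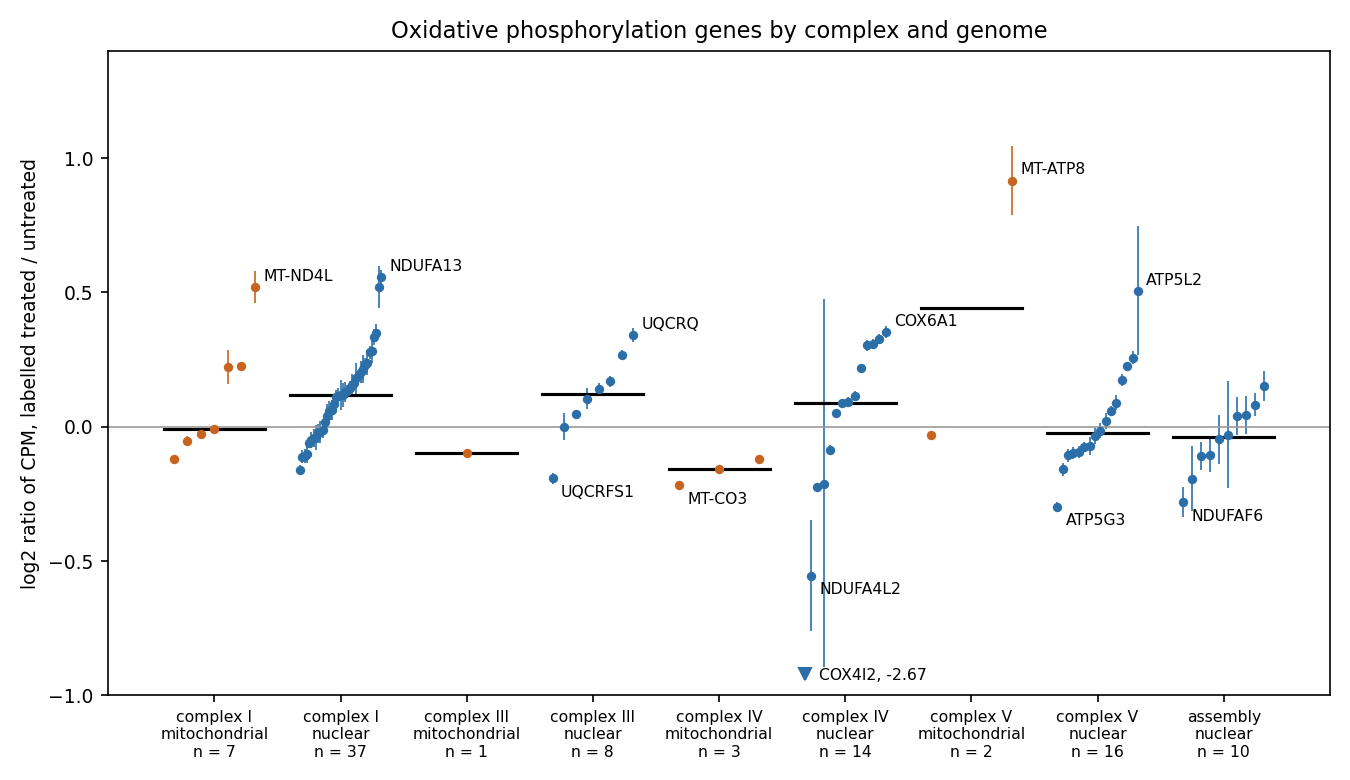
Log2 ratio of the level in the library labelled treated over that in the library labelled untreated (vertical axis) for each member, grouped along the horizontal axis by complex and by the genome that encodes it, with NDUFB2-AS1 left out. Points are genes, bars are 95% intervals for counting error and black lines are group medians; COX4I2, at -2.67, is drawn as a triangle at the edge of the axis, and in complex IV all 3 mitochondrial points lie under 0 while 9 of 14 nuclear points lie above it.

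Complex I has 7 mitochondrial and 37 nuclear subunits among the members. The 7 nuclear core subunits, which together carry the flavin and the iron-sulfur clusters, had a median log2 ratio of 0.11, and the 30 accessory subunits, which surround the core, a median of 0.12. Of the 37, 26 were above 1 and 11 below, and 4 were called higher. NDUFA13, an accessory subunit also known as GRIM-19, measured 420.2 and 618.1 CPM, a ratio of 1.47 (1.45 to 1.497). It was the nuclear subunit farthest above 1 in any complex, and its log2 ratio stayed between 0.55 and 0.61 in 11 other settings (other scalings, subsets of cells and thinned cells). NDUFA7, another accessory subunit, measured 45.6 and 65.3 CPM, a ratio of 1.43 (1.36 to 1.51). In GENCODE 29, exons of NDUFA13 overlap those of YJEFN3 and of a read-through gene, and exons of NDUFA7 overlap those of RPS28, a ribosomal protein gene on the opposite strand. Exons of 53 of the 99 members overlap another gene on the same or the opposite strand. For these the counts may be shared, although with a partner on the opposite strand this holds only if counting ignored strand. The accessory subunits NDUFA1 and NDUFB1 were next, with 263.8 and 336.2 CPM for NDUFA1 (ratio 1.27) and 295.5 and 372.4 CPM for NDUFB1 (ratio 1.26).

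NDUFS5, an accessory subunit facing the intermembrane space, had the highest nuclear level of complex I, 1116 and 1274 CPM (ratio 1.14, 1.13 to 1.15). NDUFB9, also accessory, stood lowest by ratio, with 885.7 CPM and 792.1 CPM (ratio 0.894, 0.883 to 0.906). Both kept their direction in all 11 other settings. NDUFS7, a core subunit that carries an iron-sulfur cluster near the quinone-binding region, measured 341.9 and 330.6 CPM (ratio 0.967, 0.947 to 0.987). The antisense transcript NDUFB2-AS1 held 100 and 107 UMIs with an interval spanning 1 (0.611 to 1.07), and the subunit NDUFB2 from that locus measured 543.8 and 658.9 CPM (ratio 1.21). Whether counting used strand was not given in the sources used here. If it did not, reads from the overlapping exons of that pair could not be told apart.

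In complex III, 7 of 8 nuclear subunits were above 1, although the core protein UQCRC2 was there by less than its counting error (ratio 1.00, 0.966 to 1.04). UQCRQ, a small subunit that binds near cytochrome b, measured 372.7 and 472.3 CPM (ratio 1.27, 1.24 to 1.29), and UQCRB measured 926.1 and 1116 CPM (ratio 1.20, 1.19 to 1.22). The exception was UQCRFS1, the Rieske iron-sulfur protein and the only catalytic nuclear subunit on this list, with 825.2 and 722.7 CPM (ratio 0.876, 0.864 to 0.888). Its log2 ratio lay between -0.19 and -0.14 in the other settings. UQCRH, the hinge protein at the cytochrome c docking site, had a high level, 1016 and 1049 CPM, and a ratio of 1.03 that turned just under 1 in cells of 7000 to 12000 UMIs. Cytochrome c1 (CYC1), the remaining catalytic subunit, has a symbol outside the naming rule and measured a ratio of 1.33.

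Complex IV showed the widest gap between genomes. All 3 mitochondrial subunits, which form its catalytic core, were below 1, and 9 of 14 nuclear subunits, which surround that core, were above 1. COX6A1 measured 599.7 and 766 CPM (ratio 1.28, 1.26 to 1.30), and COX6B1, which faces the intermembrane space, measured 792.8 and 994 CPM (log2 ratio 0.33). COX6C and COX8A, both single-pass membrane subunits, had ratios of 1.24 and 1.23. COX7A2, the most abundant nuclear subunit of all complexes, measured 1590 and 1690 CPM (ratio 1.06). COX6A1, COX6B1, COX6C, COX8A and COX7A2 each stayed above 1 in all 11 other settings.

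On the lower side stood COX5A, which lies on the matrix side and touches the early-assembling COX4 subunit, with 1149 and 982.3 CPM (ratio 0.855, 0.845 to 0.865). COX4I1, the common form of COX4, measured 1316 and 1240 CPM (ratio 0.943, 0.933 to 0.953). COX4I2, the form known from lung and from hypoxia, was near the floor of detection, with 53 and 11 UMIs, or 1.16 and 0.183 CPM. Its ratio of 0.157 (0.0740 to 0.304) rests on those few molecules, found in 1.28% and 0.165% of cells. NDUFA4L2, a relative of the complex IV subunit NDUFA4 that is known as a target of hypoxia signalling, held 407 and 366 UMIs, or 8.93 and 6.08 CPM (ratio 0.681, 0.590 to 0.786). NDUFA4 itself measured 1310 and 1357 CPM (ratio 1.04). COX6B2, known as the testis form of COX6B, held 36 and 41 UMIs, and its interval of 0.538 to 1.39 does not separate the libraries.

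Of the 16 nuclear genes of ATP synthase, 7 were above 1 and 9 below, and only ATP5L2 was called higher. Their summed level was nearly equal in both libraries, 9479 and 9512 CPM (ratio 1.00, 1.00 to 1.01). The 3 genes for subunit c, which forms the rotating ring in the membrane, were all below 1 and summed to 2043 and 1806 CPM (ratio 0.884, 0.876 to 0.892). ATP5G3 accounted for most of this, with 992.2 and 807.4 CPM (ratio 0.814, 0.803 to 0.824), the lowest ratio of any nuclear subunit above 50 CPM. ATP5G2 measured 687.6 and 644.4 CPM (ratio 0.937), and ATP5G1 363.1 and 354.3 CPM (ratio 0.976). The log2 ratio of ATP5G3 stayed between -0.33 and -0.24 in the other settings and that of ATP5G2 stayed below 0, whereas ATP5G1 turned above 0 in cells called G1, cells called G2/M and cells with a mitochondrially encoded share under 6%. The 3 genes encode the same mature protein behind different import sequences.

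The 4 subunits of the peripheral stalk, which holds the catalytic head still, were also all below 1 (ATP5O 0.896, ATP5J 0.950, ATP5F1 0.952 and ATP5H 0.990), with a summed ratio of 0.943 (0.936 to 0.951). ATP5O and ATP5J stayed below 1 in the other settings, and ATP5F1 and ATP5H each changed sign in 3 of 11. The 4 small membrane accessory genes ATP5L2, ATP5I, ATP5J2 and ATP5L, which sit beside the ring and hold the dimer together, were all above 1, and summed to 2022 and 2234 CPM (log2 ratio 0.14). ATP5I measured 493 and 589 CPM (ratio 1.19). ATP5L measured 955.9 and 996.2 CPM (ratio 1.04), and its near-copy ATP5L2 held 221 and 414 UMIs (ratio 1.42, 1.20 to 1.68). Reads of that pair may be split unevenly between them, and ATP5L2 turned below 1 in cells called G1.

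Among the 5 subunits of the catalytic head, the ratios ran from 0.929 for ATP5D to 1.17 for ATP5E. ATP5B, the catalytic beta subunit, measured 677.8 and 633.6 CPM (ratio 0.935), and its partner alpha subunit ATP5A1 measured 371.9 and 395.7 CPM (ratio 1.06). Within each phase they lay on the same side of 1, with log2 ratios of 0.19 and 0.38 in G1, 0.12 and 0.26 in S, and -0.33 and -0.09 in G2/M. ATP5E, the epsilon subunit and the most abundant nuclear transcript of this complex, measured 1373 and 1606 CPM (ratio 1.17, 1.16 to 1.18). A pseudogene of it, ATP5EP2, was also counted in the table, with 370 and 905 UMIs, and so was a pseudogene of COX6A1, COX6A1P2, with 1140 and 2108 UMIs. Both pseudogenes were higher in the same library as their parent genes, and reads may be divided between copy and parent, so the levels of ATP5E and COX6A1 carry that uncertainty.

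The 10 assembly and supercomplex factors within the naming rule had a median log2 ratio of -0.04, with 4 above 1, 6 below and 0 called higher or lower. NDUFAF6, a complex I assembly factor, was the lowest, at 111.2 and 91.5 CPM (ratio 0.823, 0.792 to 0.855). NDUFAF3, which acts in an early step of complex I assembly, was the highest, at 97.3 and 108.1 CPM (ratio 1.11, 1.07 to 1.16), but was below 1 in cells called G1. COX7A2L, which ties complex III to complex IV, measured 164.9 and 174.7 CPM (ratio 1.06, 1.03 to 1.09).

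Levels of the 13 mitochondrial genes spanned a wide range, and those of complex IV led it. MT-CO3 was the most abundant member of all, with 9746 and 8389 CPM (ratio 0.861, 0.857 to 0.864). MT-CO2 measured 8501 and 7813 CPM (ratio 0.919), and MT-CO1 7781 and 6973 CPM (ratio 0.896). These are the catalytic subunits of complex IV, and each stayed below 1 in all 11 other settings. MT-CYB, the cytochrome b of complex III, measured 4878 and 4561 CPM (ratio 0.935), and MT-ND1, of the complex I membrane arm, 4761 and 4381 CPM (ratio 0.920).

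The remaining long mitochondrial genes were closer to 1. MT-ND4 measured 5033 and 4937 CPM (ratio 0.981), MT-ND2 4322 and 4296 CPM (ratio 0.994), and MT-ATP6 3332 and 3261 CPM (ratio 0.979). MT-ND5 measured 944.8 and 910.4 CPM (ratio 0.964). All 4 turned above 1 in cells called G1, in cells called G2/M and in cells with a mitochondrially encoded share under 6%, so their direction depends on which cells are counted. The last of these settings is a cut on the mitochondrial share itself.

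The 4 shortest mitochondrial genes were the 4 with ratios above 1 over all cells, and each of them stayed above 1 in all 11 other settings. In some of those settings longer genes were above 1 as well, as given above. MT-ATP8, MT-ND6 and MT-ND4L also had the lowest counts of the 13 mitochondrial genes, so short length and low count cannot be separated for them. MT-ATP8 and MT-ND4L are upstream frames of mRNAs shared with longer genes, so their CPM are not levels of a separate mRNA. MT-ATP8, which encodes a small ATP synthase subunit and is annotated at 207 bases, held 702 and 1749 UMIs, or 15.4 and 29.1 CPM (ratio 1.89, 1.73 to 2.06). MT-ND4L, of complex I and 297 bases, measured 76.9 and 110.2 CPM (ratio 1.43, 1.38 to 1.49). MT-ND3, at 346 bases, measured 1404 and 1641 CPM (ratio 1.17, 1.16 to 1.18), and MT-ND6, at 525 bases, 71.7 and 83.7 CPM (ratio 1.17, 1.12 to 1.22). MT-ND6 is the only one of the 13 that is read from the opposite strand to the others.

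The highest mitochondrial ratios belonged to MT-ATP8 and MT-ND4L, the upstream frames of the mRNAs that carry a pair of frames. MT-ATP8 and MT-ATP6 share 1 mRNA, as do MT-ND4L and MT-ND4, and each upstream frame ends inside the downstream one, so that 3′ end reads assigned to the upstream gene lie within the body of a joint transcript. The ends and starts of these frames, 5′ to 3′ from GENCODE 29 transcripts with the shared bases in capitals, show the overlap of the genes being counted.
MT-ATP8, last 90 bases: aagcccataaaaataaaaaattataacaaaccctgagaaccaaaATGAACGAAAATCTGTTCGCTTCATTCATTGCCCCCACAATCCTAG
MT-ATP6, first 90 bases: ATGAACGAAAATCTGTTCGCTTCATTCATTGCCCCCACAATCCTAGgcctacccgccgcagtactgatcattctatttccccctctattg
MT-ND4L, last 40 bases: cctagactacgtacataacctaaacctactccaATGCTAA
MT-ND4, first 40 bases: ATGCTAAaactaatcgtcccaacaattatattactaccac
MT-ATP8 and MT-ATP6 share 46 bases, and MT-ND4L and MT-ND4 share 7. The annotated exon of MT-ATP6 also overlaps that of MT-CO3, whose ratio was 0.861. Within the first mRNA the MT-ATP8 ratio was 1.89 and the MT-ATP6 ratio 0.979, and within the second the MT-ND4L ratio was 1.43 and the MT-ND4 ratio 0.981. How reads in the shared bases were assigned was not given in the sources used here, and its part in these ratios was not tested.

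**Figure D2:**
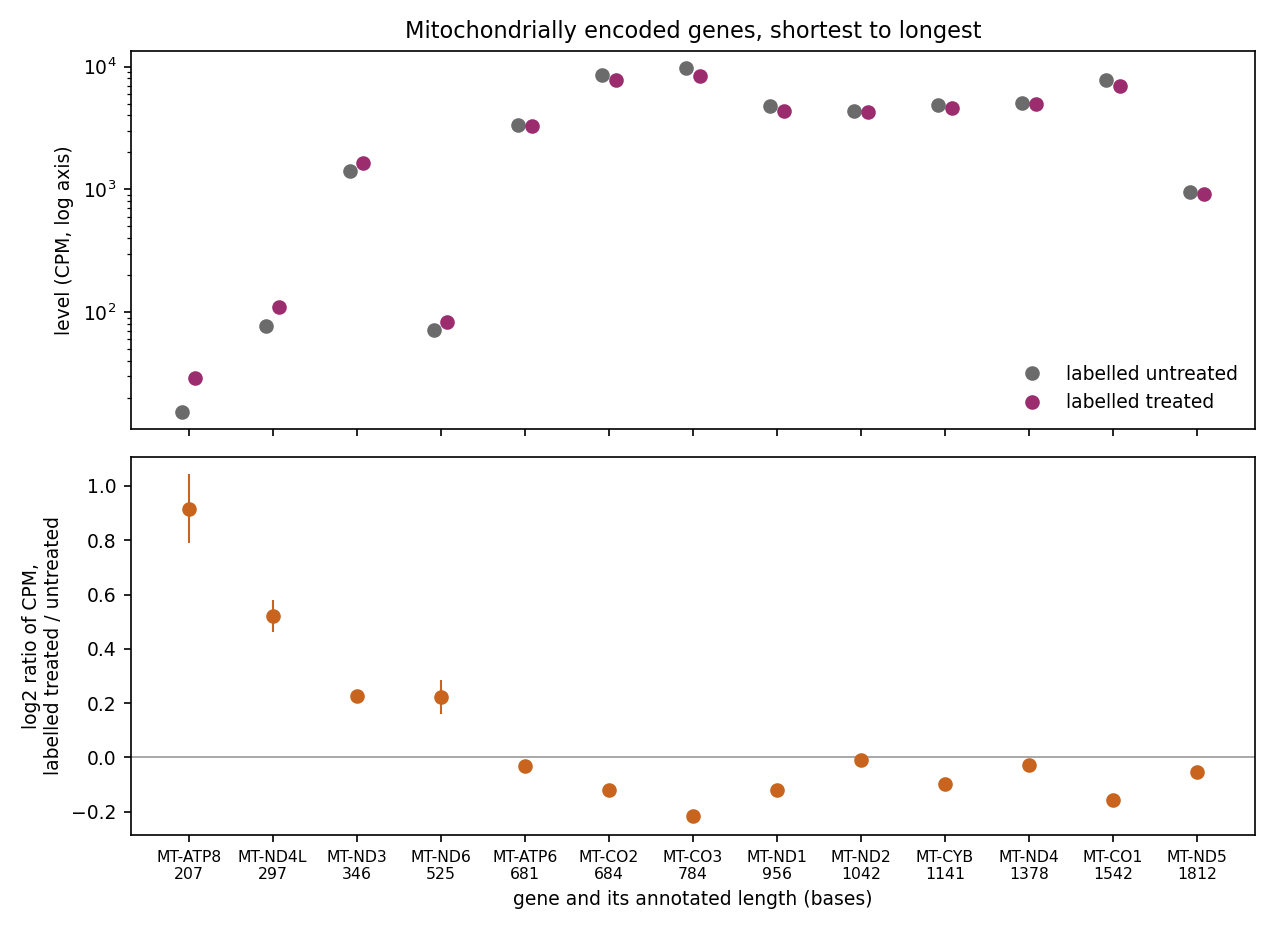
Levels of the 13 mitochondrially encoded genes in CPM and their log2 ratio, labelled treated over labelled untreated, ordered along the axis from shortest to longest annotated gene, with bars for 95% counting intervals. MT-ATP8 and MT-ND4L are frames of mRNAs shared with MT-ATP6 and MT-ND4. MT-ATP8, MT-ND4L, MT-ND3 and MT-ND6, the shortest, are the genes above 0 in log2 ratio.

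Across the 13 genes, Spearman's rho between annotated length and log2 ratio was -0.63. The genes share libraries and a common precursor RNA and are not independent, so this rho is a description. It came from the shortest genes, which alone were above 1 over all cells. Among the genes longer than 600 bases the log2 ratios followed no even order with length. There MT-CO3, of 784 bases, was at -0.22, MT-CO1, of 1542 bases, at -0.16, and MT-ND5, of 1812 bases, at -0.05. For MT-ATP8 and MT-ND4L the length is that of a frame within a longer shared mRNA. Among the 78 nuclear members at 50 CPM or more, rho was -0.32 (median transcript lengths from GENCODE 29), against 0.07 over the 2620 genes of that level with a length. Each such length is the median over all protein-coding transcripts annotated for the gene, with no filter for incomplete ones. It need not be the length of the mRNA counted, so genes may sit in a wrong length group below. Nuclear members under 600 bases had a median log2 ratio of 0.16, with 17 of 22 above 1, those of 600 to 1000 bases 0.08, with 25 of 38 above 1. Those of 1000 to 2000 bases had a median of 0.02, with 6 of 11 above 1, and those of 2000 bases or more 0.05, with 4 of 7 above 1, so the order was not even and the longer groups are small. Among other genes at that level, 94 of 154 under 600 bases were above 1, with a median of 0.07, as were 413 of 663 of 2000 bases or more, also with a median of 0.07.

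Compared complex by complex, the balance of mitochondrial to nuclear transcripts was lower in the library labelled treated in each of the 4 complexes over all cells, although for complex V it turned in cells called G2/M (log2 ratios of 0.10 for the mitochondrial and 0.01 for the nuclear sum) and in cells with a mitochondrially encoded share under 6% (0.03 and 0.01). For complex IV, the balance, which is the mitochondrial sum over the nuclear sum, was 2.38 and 1.95. Its mitochondrial sum was 26028 and 23175 CPM (ratio 0.890, 0.888 to 0.893), and its nuclear sum 10958 and 11877 CPM (ratio 1.08, 1.08 to 1.09). For complex III, with MT-CYB alone on the mitochondrial side, the balance was 1.02 and 0.879. For complex I it was 1.30 and 1.20, with a mitochondrial ratio of 0.985 and a nuclear ratio of 1.07. Complex V differed least, at 0.353 and 0.346, with sums at ratios of 0.983 and 1.00. The sums for nuclear complexes I, III and IV stayed above 1, and the mitochondrial sum of complex IV below 1, in all 11 other settings. The mitochondrial sum of complex III also stayed below 1, but in cells called G2/M by almost nothing (log2 ratio -0.00116). Those of complexes I and V turned above 1 in cells called G1, in cells called G2/M and in cells with a mitochondrially encoded share under 6%. That last setting is a cut on the mitochondrial share itself.

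The same balance was visible cell by cell after each cell was thinned to 4351 UMIs, which left 3892 and 6012 cells and dropped 245 and 667 shallower ones. In the median cell, mitochondrial members took 4.99% and 4.62% of UMIs (4.96% and 4.58% without thinning), and nuclear members 3.86% and 4.09% (3.87% and 4.10% without thinning). Cells of both libraries overlapped widely: the 10th to 90th percentiles of the mitochondrial share ran from 3.61% to 6.66% and from 3.58% to 6.00%. The median ratio of mitochondrial to nuclear members within a cell was 1.28 and 1.12, and it exceeded 1 in 84.3% and 68.2% of cells. For complex IV the mitochondrial share of the median cell was 2.55% and 2.28%, and its nuclear share 1.103% and 1.17%. For complex V the medians were 0.322% on the mitochondrial side and 0.942% on the nuclear side in both libraries. The mitochondrially encoded share of a cell reached at most 9.96% and 9.99%, and as no source used here states the cell filters, cells above that range cannot be described.

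**Figure D3:**
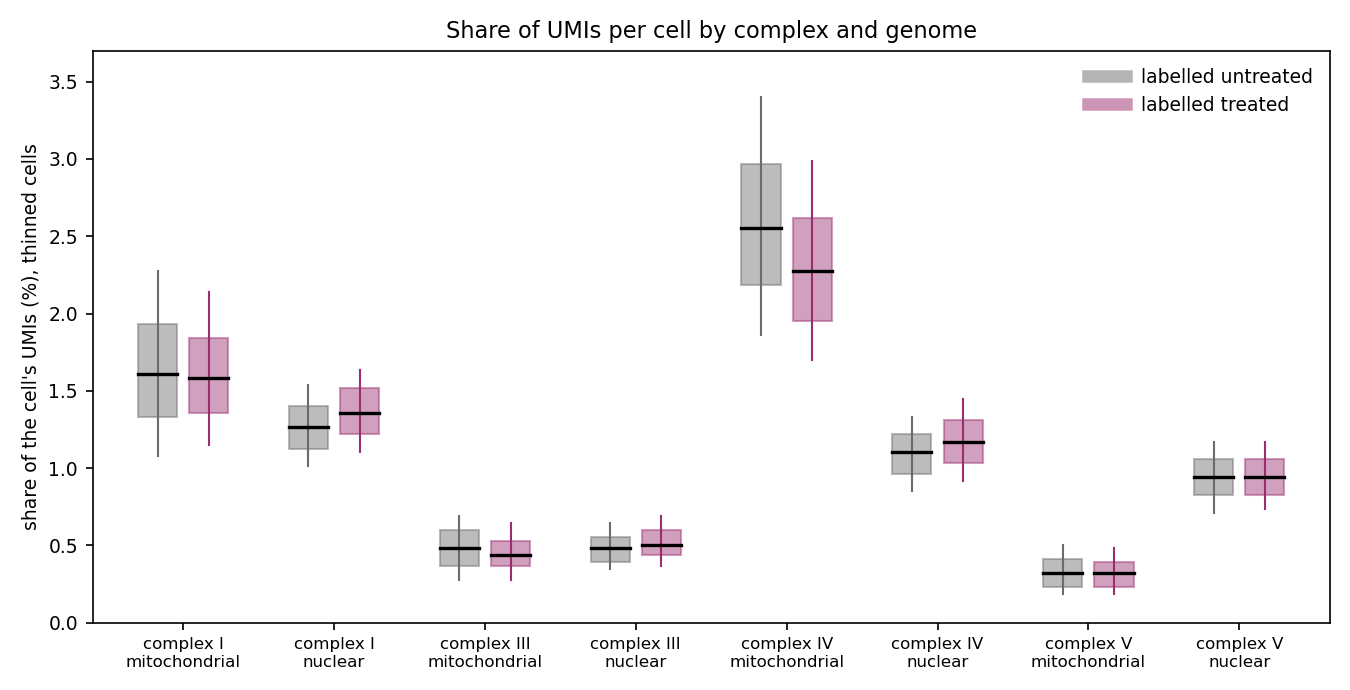
Percent of a cell's UMIs taken by mitochondrial and by nuclear members of each complex, in cells thinned to 4351 UMIs, with the library labelled untreated beside the library labelled treated. Boxes span the quartiles with the median and lines run from the 10th to the 90th percentile; the mitochondrial share of complex IV has medians of 2.55% and 2.28%.

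Mitochondrial transcripts varied together from cell to cell. Over pairs of the 10 mitochondrial genes with at least 1 UMI per thinned cell, the median Pearson r was 0.42 and 0.39 (45 pairs). Over 1485 pairs of 55 nuclear members at the same minimum it was 0.02 in both, a value too weak in such sparse counts to read. The mitochondrial shares of complexes I and IV had r of 0.71 over 3892 cells and 0.66 over 6012 cells. For the nuclear shares of complexes I and IV, r was 0.20 and 0.27, and for those of complexes I and V it was 0.24 and 0.26. Between the genomes r was weak. The mitochondrial and the nuclear share of a cell had r of 0.04 and -0.14 over all members. By complex it was 0.10 and -0.10 for I, 0.08 and 0.00 for III, 0.02 and -0.04 for IV, and -0.03 and -0.09 for V. All these values come from cells of the same 2 libraries and from shares of a fixed total.

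Both sums were also read within cell cycle phases, called from 40 S phase and 54 G2/M genes, because the libraries differed there: 7.53% and 4.18% of thinned cells were called G1, 57.3% and 47.8% S, and 35.2% and 48.0% G2/M. Nuclear members took more of the UMIs in the library labelled treated in every phase, with 3.83% and 4.25% in G1, 3.97% and 4.19% in S, and 3.71% and 3.98% in G2/M. Mitochondrial members differed mainly in S, with 5.23% and 4.56%, and were close in G1 (4.44% and 4.46%) and in G2/M (4.95% and 4.89%). The mitochondrial sum of complex IV was lower in each phase, with 2.33% and 2.22% in G1, 2.65% and 2.22% in S, and 2.58% and 2.41% in G2/M. That of complex III was lower in S (0.512% and 0.453%) but nearly equal in G1 (0.425% and 0.421%) and in G2/M (0.462% and 0.458%). Only 293 and 251 cells were called G1, and the calls rest on genes that themselves differed between libraries, with median log2 ratios of 0.17 for the S genes and 0.30 for the G2/M genes. The difference between phases, and the part of the phase mix in the sums over all cells, was not tested.

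**Figure D4:**
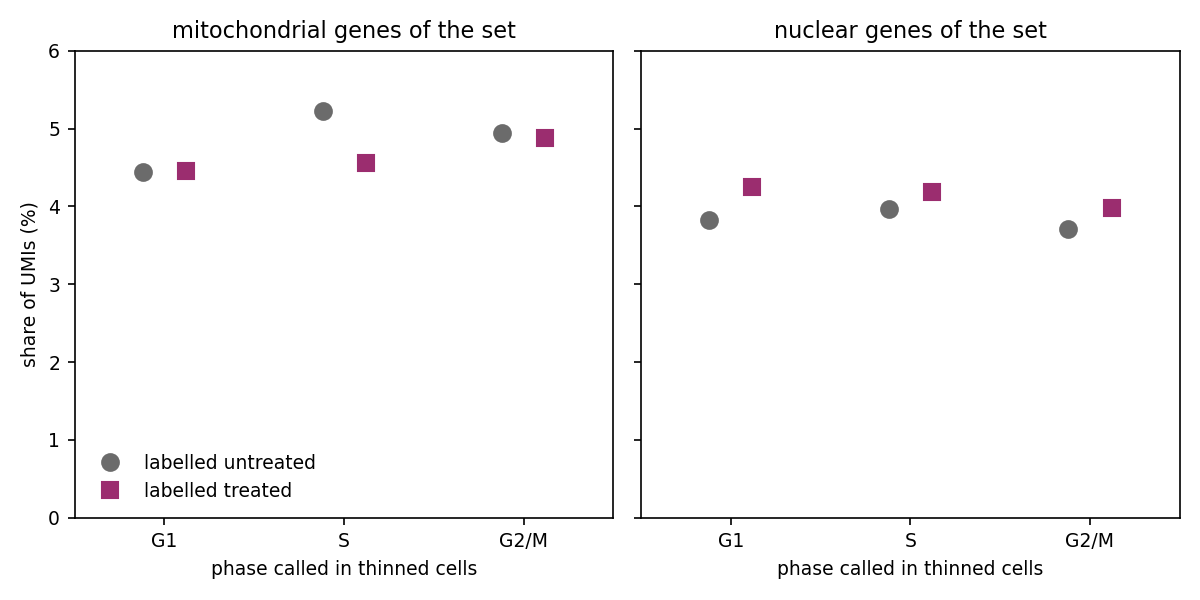
Percent of UMIs taken by mitochondrial and by nuclear members among thinned cells called G1, S and G2/M, with 1 point per library and phase. For mitochondrial members the library labelled untreated stands higher in S (5.23% against 4.56%), and for nuclear members the library labelled treated stands higher in every phase.

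Depth was a further difference between the libraries. With the cells of each library ranked by UMIs and divided into 4 groups of equal size, from shallowest to deepest, mitochondrial members took 4.58%, 5.29%, 5.29% and 4.99% of UMIs among cells labelled untreated. Among cells labelled treated the shares were 4.62%, 4.55%, 4.81% and 4.83%. In the shallowest groups the mitochondrial shares were thus close. The gap was widest in the next group (5.29% and 4.55%) and narrowed to 4.99% and 4.83% in the deepest. Nuclear members took from 3.77% to 3.94% among the former and from 4.01% to 4.12% among the latter, so the nuclear difference was present at every depth. The groups were cut within each library and cover different depths.

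Genes that serve the same machinery under other names lay on both sides of 1. Counts of called genes in the lists stand beside the shares over all genes given above, 13.5% higher and 24.6% lower, or 9.15% and 8.32% at 50 CPM or more. Of 4 complex II genes, which encode succinate dehydrogenase, 0 were called higher or lower, with SDHA at a ratio of 1.12 and SDHC at 0.941. Cytochrome c itself (CYCS), the carrier between complexes III and IV, had a ratio of 0.881. Assembly factors with symbols outside the naming rule had median log2 ratios of -0.18 for complex I (11 genes, 1 called higher and 2 lower), -0.08 for complex III (6 genes, 0 and 1) and -0.03 for complex IV (26 genes, 4 and 2). Among those for complex I, LYRM2 had a ratio of 1.30 and TIMMDC1, a membrane-arm assembly factor, 0.778. Among those for complex III, UQCC1, which acts in cytochrome b synthesis, had 0.731, and LYRM7, which inserts the Rieske protein, 0.944 with an interval that spanned 1. For complex IV, SURF1, needed to build the MT-CO1 core, had a ratio of 0.771, whereas PET100, another complex IV factor, had 1.46. Of 7 further ATP synthase genes, USMG5 and C14orf2 encode small membrane subunits under other names, with log2 ratios of 0.32 and 0.41. The other 5, which are assembly factors and the inhibitor ATPIF1, had a median log2 ratio of 0.01, from C7orf55 at a ratio of 1.58 to TMEM70, which helps to build the c-ring, at 0.812. Over all 7 the median was 0.20, and C14orf2 and C7orf55 were the 2 called higher.

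Around the chain, the exchangers of ATP, ADP and phosphate had a median log2 ratio of 0.00 (9 genes, 0 called higher and 0 lower), from SLC25A6, an ADP/ATP carrier, at a ratio of 1.24 to the phosphate carrier SLC25A3 at 0.858. Enzymes of the tricarboxylic acid cycle, which supply NADH and succinate, had a median of -0.09 (18 genes, 1 and 0), with IDH2 at 1.29 and IDH3B at 0.833. Factors that transcribe and replicate mitochondrial DNA had a median of -0.15 (15 genes, 1 and 1), and those for mitochondrial RNA stability and translation 0.07 (22 genes, 3 and 2). In the former list the called genes were POLRMT, the mitochondrial RNA polymerase, at a ratio of 1.26, and POLG2, the accessory subunit of the DNA polymerase, at 0.787. The single-strand binding protein SSBP1, at 0.894, and the topoisomerase TOP1MT, at a log2 ratio of 0.32 just under the bound, had the intervals farthest from 1 on their sides. In the latter list PNPT1, which degrades RNA in mitochondria, was at 1.26 and the release factor MTRF1L at 0.716.

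Nuclear regulators of mitochondrial genes had a median of 0.05 (11 genes, 2 called higher and 2 lower). GABPA, an ETS-family factor also called NRF2 alpha, and NRF1 each had a ratio of 1.44, the coactivator PPARGC1B had 0.651, and MYC, with 66 and 54 UMIs, had 0.620. Import machinery of both membranes had a median of 0.13 (23 genes, 2 and 1), from PAM16 at 1.92 to TOMM34 at 0.757. Mitochondrial chaperones and proteases had a median of -0.02 (16 genes, 1 and 1), with AFG3L2 at 1.35 and ATF5, a stress-response factor kept on that list, at 0.626. Antioxidant enzymes had a median of 0.02 (10 genes, 0 and 0), from TXN2 at 1.21 to PRDX5 at 0.810. Mitoribosomal proteins, which translate the mRNAs of the 13 mitochondrial genes, had medians of -0.01 for the large subunit (47 genes, 3 and 2) and -0.01 for the small subunit (28 genes, 1 and 2). Among them, MRPL54 was at 1.38, MRPL40 at 0.611, MRPS24 at 2.31 and MRPS12 at 0.791. PAM16, MRPS24 and C7orf55 also lie in read-through genes, so that their counts are uncertain.

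Promoters were examined because nuclear subunit genes are known to share sites for NRF1, for ETS-family factors such as GABPA, and for YY1. RefSeq promoters on GRCh38.p14, from 250 bases before to 50 after the gene start, were matched for 70 of 85 nuclear members, and both strands were searched for exact motifs. The 3 printed are NDUFA13, with the highest ratio among nuclear subunits, COX6A1, which is the highest of complex IV, and COX5A, which is among the lowest; capitals mark NRF1 (GCGCATGC) and ETS (CCGGAAG) matches on either strand.
NDUFA13, chr19:19515975-19516274, plus strand, 1 ETS match: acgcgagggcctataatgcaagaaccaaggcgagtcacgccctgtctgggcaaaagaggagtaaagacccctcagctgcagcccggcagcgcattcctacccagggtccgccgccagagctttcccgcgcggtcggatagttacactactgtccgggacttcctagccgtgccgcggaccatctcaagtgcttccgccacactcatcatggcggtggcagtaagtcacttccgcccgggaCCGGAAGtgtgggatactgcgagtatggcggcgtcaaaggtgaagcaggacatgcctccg
COX6A1, chr12:120437863-120438162, plus strand, NRF1 matches on both strands and an ETS match on the minus strand: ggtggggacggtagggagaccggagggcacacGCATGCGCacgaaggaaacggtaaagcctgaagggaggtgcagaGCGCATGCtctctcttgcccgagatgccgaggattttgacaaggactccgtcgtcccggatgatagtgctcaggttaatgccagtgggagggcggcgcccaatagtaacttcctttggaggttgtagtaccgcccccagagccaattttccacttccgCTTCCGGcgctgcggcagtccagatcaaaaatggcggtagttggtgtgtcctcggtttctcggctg
COX5A, chr15:74938024-74938323, minus strand, no match: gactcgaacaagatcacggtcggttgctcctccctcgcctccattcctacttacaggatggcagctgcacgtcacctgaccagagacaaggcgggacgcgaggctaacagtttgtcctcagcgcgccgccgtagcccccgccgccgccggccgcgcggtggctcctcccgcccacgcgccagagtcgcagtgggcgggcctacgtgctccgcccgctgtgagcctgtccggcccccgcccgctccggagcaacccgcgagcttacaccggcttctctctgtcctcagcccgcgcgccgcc
GCGCATGC occurred in 14 of 70 members (20%), beside 3.68% of all 27305 genes with such a promoter. It occurred in 8.12% of the 2156 of these at 50 CPM or more, which were matched by their symbol in the deposited table. Members were matched through current symbols, so members under older symbols can be missing from the 2156. CCGGAAG occurred in 19 of 70 (27.1%), beside 12.2% of all and 28.1% of those at that level, so its share among members was close to that among well-expressed genes. The YY1 motif AAGATGGCG occurred in 8 of 70 (11.4%), beside 2.14% and 6.31%. In 0 of 87 member promoters did matches of different motifs overlap. A gene with several promoters counted once, with a match in any of them.

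By motif, members with CCGGAAG had a median log2 ratio of 0.16 (15 of 19 above 1) and members without it 0.05, and 5 of 19 against 2 of 51 were called higher. The 5 were NDUFA13, COX6A1, COX6B1, UQCRQ and NDUFA1. Over the 2156 genes at 50 CPM or more with a matched promoter the motif went with no such gap, at 7.59% with it and 9.61% without it. With GCGCATGC the member median was 0.00 and without it 0.09, and with AAGATGGCG it was 0.08 against 0.08. These gaps were not tested. A match in these windows is a description of letters, and binding was not measured here.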

How the data were processed

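Single WaGa cells were profiled with 10x Genomics 3′ chemistry in 2 groups of 1 library each. Cell Ranger, Seurat and hg19 are named, per the submitters' processing notes, while their versions, the annotation and any cell filter are not given in the sources used here. A single table was deposited by the authors with natural log values, which back-transformed to 10000 per cell, so each was the natural log of 1 plus counts per 10000. The smallest value above 0 in a cell was taken as 1 UMI, and 100% of values were whole multiples of it within 1e-06. These recovered counts were summed per library and scaled to CPM. Cells were assigned by the treatment word in their names, and 0 columns were left unused.

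Ratios carry exact Clopper-Pearson 95% intervals, and genes below 50 UMIs over both libraries were left out. A floor of 3 UMIs corresponds to 0.0658 CPM (labelled untreated) and 0.0499 CPM (labelled treated). No doublet caller was run, and an alternative dropped the top 5% of cells by UMIs. Phases were called with scanpy 1.11.5, intervals with scipy 1.17.1, under Python 3.11.15 with numpy 2.4.6 and pandas 2.3.3. The ratio code was tested on simulated data.

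All 99 members matched a RefSeq symbol, 33 of them under an older symbol. NDUFB8, UQCR11 and NDUFA7 occur in 2 rows each, and the row with the UMIs was used. RefSeq (GRCh38.p14) and GENCODE 29 served only for names, lengths and sequences, since they are not the deposited build. Named in the text were all mitochondrial members, the highest, the lowest and the most abundant nuclear member of each complex, paralogues, members 1.5-fold apart, and the genes of each pathway list whose interval lay farthest from 1 on either side; highest and lowest were read from the interval bound nearest to 1, and other genes were chosen after their values were seen. The members and lists were chosen with earlier results of these data known. One item is not reported here.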

Additional observations from a re-analysis of the deposited data

How the results depend on the processing

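No paired analysis was possible because each group has 1 library, and for the same reason no replicate could be left out. The sums are log2 ratios by complex. In at least 1 alternative 35 of the 99 members changed sign, among them ATP5L2, called higher, with -0.17 in cells called G1. Scaling by the median gene ratio gave -0.0156 and 0.105 for complex I (mitochondrial, nuclear), -0.161 and 0.123 for complex IV, and 0.0116 for nuclear complex V. A total without the mitochondrial and ribosomal protein genes gave -0.0122 and 0.109 for complex I, -0.0868 and 0.122 for III, -0.157 and 0.126 for IV, and -0.0148 and 0.015 for V. Equal weight for each cell gave -0.0132 for mitochondrial complex I and -0.0884 for III. Dropping the top 5% of cells by UMIs gave mitochondrial sums of -0.034, -0.109, -0.178 and -0.038 for I, III, IV and V. Cells of 7000 to 12000 UMIs gave -0.0664 and 0.107 for I, -0.153 and 0.0817 for III, -0.208 for mitochondrial IV, and -0.0734 and 0.0125 for V. Cells with a mitochondrially encoded share under 6% gave 0.0293 and 0.108 for I, -0.0465 and 0.123 for III, -0.122 and 0.123 for IV, and 0.0267 for mitochondrial V. Cells called G1 gave 0.0786 and 0.185 for I, -0.0419 and 0.175 for III, -0.0957 and 0.148 for IV, and 0.0453 and 0.0811 for V, with a nuclear median of 0.149. Cells called S gave -0.139 for mitochondrial I, -0.182 and 0.0913 for III, -0.26 and 0.11 for IV, and -0.142 and 0.0177 for V, with a mitochondrial median of -0.148. Cells called G2/M gave 0.0824 and 0.117 for I, -0.00116 and 0.166 for III, -0.0941 and 0.138 for IV, and 0.0993 for mitochondrial V. Thinned cells gave -0.0274 and 0.105 for I and 0.108 for nuclear IV. Nuclear members called higher numbered 20 in cells called G1 and 13 in cells called G2/M, against 8 in all cells; of all genes with 50 UMIs, 24.9% and 17.1% were called higher in those cells, against 13.5%, and of those at 50 CPM or more 18.2% and 11.9%, against 9.15%. Those called lower, against 2, numbered 4 in each phase (of genes at 50 CPM or more, 11.6% in G1, 7.85% in S and 12.4% in G2/M). They numbered 5 in cells of 7000 to 12000 UMIs, beside 25.4% of all genes with 50 UMIs and 7.63% of those at 50 CPM or more. In thinned cells they also numbered 5, beside 25.6% and 8.17%. With a pseudocount of 0.1 per 10000 they numbered 0, beside 6.23% and 6.91%, and with a minimum of 200 UMIs 1. Folds of 1.1 and 1.5 gave 29 and 0 nuclear members higher, 11 and 1 lower, 4 and 1 mitochondrial members higher, and, at 1.1, 2 lower. Fewer cells and other folds enter some of these by construction, as does the cut on the mitochondrial share itself. The cause of the other shifts was not tested.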
